A study of Mus musculus with 18 samples.

Results

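Irx3, Irx5, Sall3, Foxb1, Sp8 and Meis2 are 6 transcription factor genes, of 22997 nuclear genes counted in single cells of early mouse embryos. They were named as early neural ectoderm factors because their transcripts were far more abundant at embryonic day (E) 7.5 than at E6.75, so that difference in stage is given here as a description, with no test. The report turns on where the 6 genes were expressed within each stage, among cells that carried transcripts of Sox2, T or Mesp1. The genes were chosen with earlier results of these data known. How far those results covered expression within a stage is not stated in the sources used here. The study, which by its title follows how mesoderm and endoderm separate in time and space, collected cells of wild-type C57BL/6 embryos. At E6.75, 6 libraries held hand-picked cells from embryos whose extraembryonic part had been cut away and which were dissociated singly, prepared by CEL-Seq2. At E7.5, 12 libraries held cells sorted by flow cytometry from embryos trimmed below the chorion, with the embryos of 1 or 2 litters pooled, prepared by mCEL-Seq2, the robotic small-volume form of that method. Stage, collection and protocol changed together, so their parts in any difference between E6.75 and E7.5 cannot be told apart. The labels do not say which embryos a library came from, and p-values here measure the spread between libraries.

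During gastrulation the epiblast, a single epithelial layer, gives rise to ectoderm and, through the primitive streak, to mesoderm and endoderm. Sox2 is a transcription factor gene of the epiblast and of neural ectoderm, T (Brachyury) one of the streak and early mesoderm, and Mesp1 one of nascent mesoderm. Irx3 and Irx5 are neighbouring Iroquois homeobox genes known for patterning the neural plate, heart and limb. Sall3 encodes a spalt-like zinc finger protein, Foxb1 a forkhead protein of the caudal neural plate and hindbrain, and Sp8 a zinc finger protein of forebrain and limb ectoderm. Meis2 encodes a TALE homeodomain protein that binds DNA together with Hox and Pbx proteins in both neural and mesodermal tissue.

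The deposited values count transcripts by molecular identifiers. Cells with at least 2000 nuclear transcripts were kept, which left 543 of 576 cells at E6.75 (85 to 96 in a library) and 429 of 1152 at E7.5 (15 to 71 in each of 11 libraries). E7.5 replicate 5 had no kept cell and was left out. Transcripts summed over the kept cells of a library of E6.75 came to between 2.92e6 and 5.49e6, and those of E7.5 to between 488908 and 2.62e6, and the median kept cell had 39348 and 31203. Levels are given as CPM, a gene's transcripts in such a sum divided by all its nuclear transcripts and scaled by 1e6, in which fewer cells of a type and less RNA per cell cannot be told apart. Cells were sorted into exclusive groups by detection, at least 1 transcript against none. Sox2-only cells had Sox2 without T or Mesp1, Sox2 and T cells had both without Mesp1, Sox2 and Mesp1 cells had both of those, Mesp1 cells had Mesp1 without Sox2, and T cells had T without either. A cell with few transcripts can miss any of these genes, so the groups are gates on detection and not cell types. The E7.5 libraries differed in makeup: cells with Sox2 were 0% of the kept cells in replicate 9, 16.7% in replicate 1 and 79.3% in replicate 7.

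Among the Iroquois genes, Irx3 at E6.75 ranged from 1.65 to 5.14 CPM with a median of 4.13 over 6 libraries, and at E7.5 from 13.3 to 74.9 CPM with a median of 67.6 over 11. At E7.5, 4 libraries were low for Irx3, with replicate 10 at 13.3, replicate 2 at 19.9, replicate 1 at 22.3 and replicate 6 at 24.3 CPM, and the other 7 lay at 65.6 to 74.9 CPM. Replicate 9, which had no Sox2 transcript, was among the high libraries with 65.6 CPM. Irx5 ranged from 0.342 to 6.99 CPM (median 1.13) at E6.75 and from 13.3 to 108 CPM (median 58.5) at E7.5. The E6.75 libraries 2_13 and 2_14 stood above the others for Irx5, at 5.46 and 6.99 CPM against at most 1.17, which rest on 30 and 36 transcripts. Irx3 overlaps its antisense gene Irx3os, and use of strand in counting is not given in the sources used here. Irx3os had a mean of 0.258 CPM at E6.75 and 0.558 CPM at E7.5.

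The zinc finger gene Sall3 was the member with the highest E6.75 levels, from 9.24 to 33.0 CPM with a median of 20.5, and it ranged from 57.1 to 162 CPM with a median of 102 at E7.5. Sp8 ranged from 6.70 to 12.2 CPM (median 9.70) and from 14.5 to 57.8 CPM (median 34.2) at the later stage. Both were thus detected in every library of either stage, without overlap between the stages. Foxb1 ranged from 1.32 to 3.50 CPM (median 1.6) at E6.75 and from 2.05 to 151 CPM (median 77.6) at E7.5, the widest range of the 6 genes. Its lowest E7.5 libraries were replicate 9 at 2.05 CPM, inside the E6.75 range, and replicate 10 at 8.90 CPM. Meis2 ranged from 1.03 to 24.3 CPM (median 2.25) at E6.75 and from 41.5 to 132 CPM (median 82.1) at E7.5. The highest E6.75 libraries for Meis2 were again 2_13 at 24.3 and 2_14 at 10.1 CPM, against at most 2.75 CPM in the other 4. Every E7.5 library lay above every E6.75 library for 5 of the 6 genes, Foxb1 being the exception, against 4.01% of the 9998 genes that passed the filter on low values. Without E7.5 replicate 9 it held for 6 of 6, against 4.83% of those genes. Since the genes were chosen on this contrast, nothing is read from these shares.

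**Figure D1:**
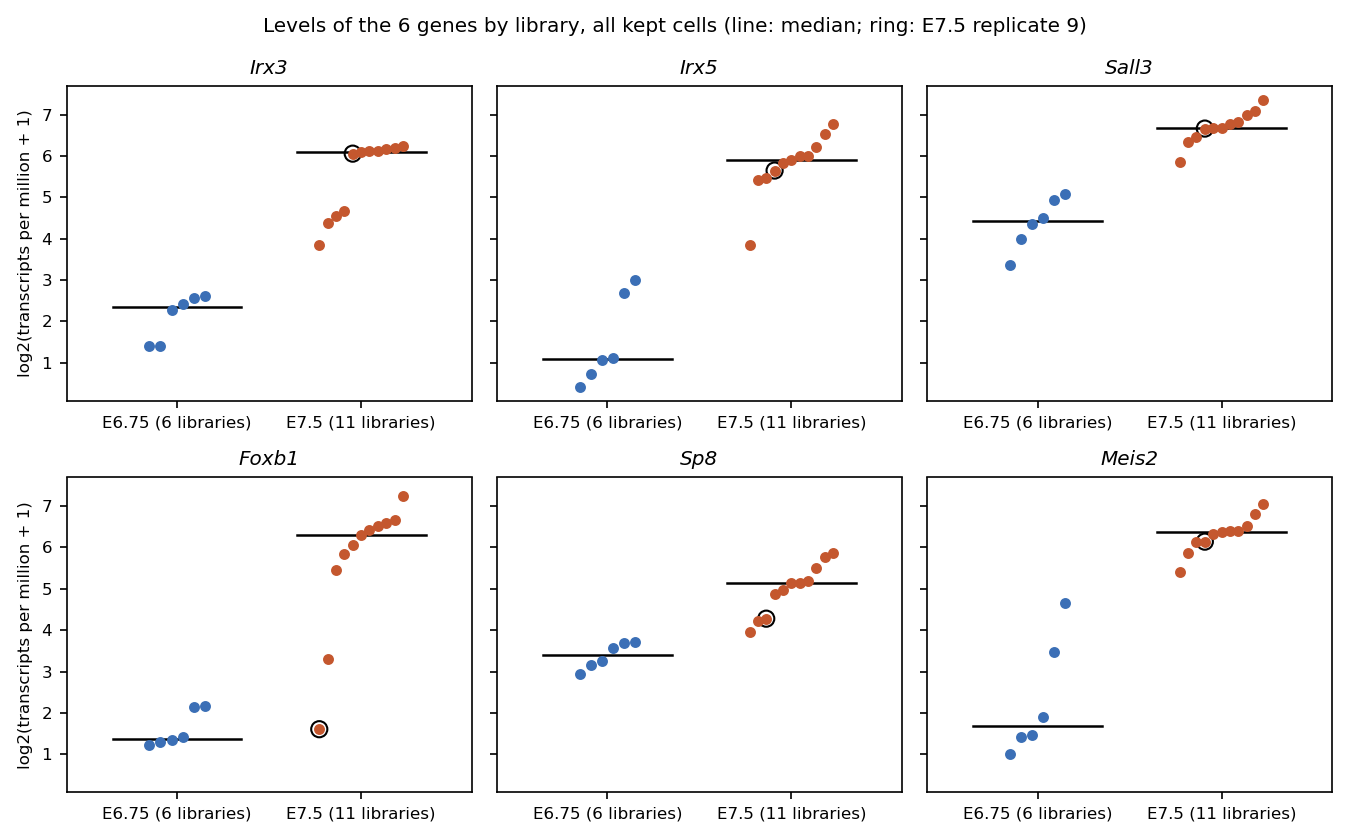
Level of each of the 6 genes in every library as log2(CPM + 1), for the 6 libraries of E6.75 and the 11 of E7.5 (1 point a library, line at the median, ring around E7.5 replicate 9). Irx5 and Meis2 have 2 high E6.75 libraries each, 2_13 and 2_14, and Foxb1 at E7.5 spreads from 2.05 to 151 CPM.

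Of the 543 cells of E6.75, 48 had a transcript of Irx3, 33 of Irx5, 32 of Foxb1 and 54 of Meis2, while Sp8 was found in 117 (21.5%) and Sall3 in 173 (31.9%). Irx3 had 88 transcripts in all. Of these, 32 (36.4%) lay in 13 cells that carried at least 3 of 7 markers of extraembryonic ectoderm (Elf5, Wnt7b, Plac1, Rhox6, Rhox9, Bmp8b and Ascl2), cells that held 2.39% of all transcripts and came from 5 libraries. Irx3 was detected in 12 of these 13 cells (92.3%, exact 95% binomial interval 64.0% to 99.8%, counting error only) at 56.7 CPM, with at most 5 transcripts in 1 cell. Irx5, Sall3, Sp8 and Meis2 were at 0 there, which allows up to 23.1% of such cells to show a transcript at this depth, or 5.31 CPM, and does not limit the share of cells that express these genes. Foxb1 had 1 transcript. The cells carried Sox2 too, so that 11 of them fell among the Sox2-only cells. Without cells carrying 3 or more markers of extraembryonic ectoderm or visceral endoderm, Irx3 in Sox2-only cells was at 0.638 instead of 3.06 CPM and in 2.67% instead of 7.72% of cells.

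A further 32 Irx3 transcripts (36.4%) lay in the 50 E6.75 cells with Mesp1, which held 12.7% of all transcripts. The same 50 cells held 57 of the 77 Irx5 transcripts (74.0%), 155 of the 209 Meis2 transcripts (74.2%), 196 of 546 for Sall3 (35.9%) and 52 of 236 for Sp8 (22.0%). Foxb1 had 2 of its 48 transcripts there, and 41 of them (85.4%) lay in the 422 cells with neither Mesp1 nor 3 markers of either extraembryonic tissue. Those 422 cells, with 76.7% of all transcripts, also held most of the Sall3 (336, 61.5%) and Sp8 transcripts (166, 70.3%). They held 52 of the Meis2, 15 of the Irx3 and 17 of the Irx5 transcripts, the last 2 at 0.827 and 0.938 CPM. The Mesp1-positive cells came from libraries 2_13 (28 cells, 29.2% of its kept cells), 2_14 (17 cells, 17.9%) and 2_9 (5 cells, 5.38%), and the other 3 libraries had none. Libraries 2_13 and 2_14 are also those with high Irx5 and Meis2 over all cells.

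At E6.75, Sall3 and Meis2 were higher in cells with Mesp1 (with or without Sox2) than in Sox2-only cells of the same library. This comparison was chosen after the pattern had been seen, and covers the 3 libraries with both groups, 50 cells with Mesp1 against 100 Sox2-only cells. Sall3 was at 32.5 CPM in the Mesp1-positive cells of 2_9, 66.6 in 2_13 and 80.4 in 2_14, against 13.1, 8.34 and 12.6 CPM in Sox2-only cells. The 2 groups did not overlap, and the log2 fold change was 2.48 (SE 0.301, limma adjusted p = 0.00202). Meis2 was at 6.09, 68.5 and 46.3 CPM against 0, 4.45 and 0 CPM, again without overlap, with a log2 fold change of 5.21 (SE 0.713, limma adjusted p = 0.00461). Its 6.09 CPM in 2_9 rest on 3 transcripts, and both the lack of overlap and its passing of the filter hang on that value. Sp8 had a log2 fold change of 2.16 (SE 0.473) and missed the threshold of 0.05 with a limma adjusted p of 0.0586. Fitted without the filter on low counts Sp8 passed, with 2.11 and a limma adjusted p of 0.0107. Irx3, Irx5 and Foxb1 fell below that filter. Irx5 was at 2.03, 18 and 29.7 CPM in the Mesp1-positive cells and at 1.64, 0 and 0.932 CPM in Sox2-only cells, and Irx3 at 0, 10.6 and 16.5 against 1.64, 2.78 and 0 CPM. Without the filter Irx5 had a log2 fold change of 4.13 (SE 0.702, limma adjusted p = 0.000197), Irx3 one of 2.34 (SE 0.755, limma adjusted p = 0.142) and Foxb1 one of 0.61 (SE 0.778, limma adjusted p = 0.793). With the filter 2 of the 3 tested members rose, where 1.1% of the 9367 genes tested passed in either direction with 0.854% higher and 0.246% lower. Meis2 and Sp8 passed the filter only through their sums of cells with Mesp1, so only a rise could be seen for them. Since the comparison was also chosen after the pattern had been seen, nothing is read from this count.

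The direction of other genes in that comparison is given from lists chosen with earlier results of these data known. Of 10 markers of nascent and paraxial mesoderm, 7 were tested and 5 rose with a list median of 3.73, against 0.02 over all genes tested, with Mixl1 at 5.02, Snai1 at 3.73 and Cdh11 at 4.68 on the log2 scale. Of 18 paralogs and protein partners of the members, 8 were tested and 2 rose, among them Sp5 by 4.86. Cdh11 and Sp5 had means of 2.53 and 3.70 CPM in Sox2-only cells. They could not pass the filter on low counts without their sums of cells with Mesp1. A fall was not open to such genes, so nothing is read from these list counts and medians. Among 11 tested neural ectoderm genes 1 fell, Sfrp1, a secreted Wnt antagonist, which fell by 1.51. Visceral endoderm markers moved with the groups, with Apoa1 and Ttr lower in the Mesp1-positive cells and a summed level of 38.6 to 68.3 CPM there against 43.8 to 732 CPM. With cells of that kind, of extraembryonic ectoderm or with Foxa2 left out, 236 instead of 103 genes passed. The calls of Sall3 and Meis2 rest on single libraries: without 2_13 Sall3 had a log2 fold change of 2.22 and a limma adjusted p of 0.100, and without 2_9 Meis2 had 5.12 and 0.0584. Meis2 was tested in only 2 of the 3 fits with 1 library left out. Without the library as a block Meis2 had 5.96 and a limma adjusted p of 0.0726.

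Shares of cells with a transcript depend on depth, so each cell was also thinned to 2000 transcripts. The thinning was a single random draw, and the intervals do not cover the spread between draws. At that depth, Irx3 was detected in 1.54% of 259 Sox2-only cells at E6.75 and in 21.3% (exact 95% binomial interval 12.9% to 31.8%) of 80 such cells at E7.5, with unthinned shares of 7.72% and 60%. Irx5 went from 0.386% to 11.3%, Sall3 from 2.70% to 17.5%, Foxb1 from 1.16% to 11.3%, Sp8 from 2.32% to 5% and Meis2 from 0.386% to 3.75% (0.780% to 10.6%). Meis2 was thus detected in the fewest thinned Sox2-only cells of E7.5, and the E6.75 values rest on very few cells. In 66 visceral endoderm-marker cells of E6.75 the unthinned shares were 15.2% for Irx3, 7.58% for Irx5, 22.7% for Sall3, 6.06% for Foxb1, 18.2% for Sp8 and 9.09% for Meis2, at a median of 27605 transcripts against 45931 in the Sox2-only cells. The Sox2-only shares at E6.75 were 7.72%, 2.70%, 25.5%, 5.02%, 18.1% and 3.47% in the same order. Some of these Sox2-only cells carried 3 or more markers of an extraembryonic tissue, and some visceral endoderm-marker cells carried Mesp1 or 3 markers of extraembryonic ectoderm. With both left out, 225 Sox2-only and 58 visceral endoderm-marker cells remained. Irx3 was found in 6 and 7 of these, Irx5 in 6 and 2, and Foxb1 in 10 and 4. Levels were 0.638 against 4.62 CPM for Irx3, 0.638 against 1.54 for Irx5 and 1.46 against 2.05 for Foxb1. Whether these few transcripts are background was not tested. Sall3 was found in 60, Sp8 in 43 and Meis2 in 9 of the 225 cells, against 8, 9 and 2 of the 58, at 12.3 against 7.19 CPM for Sall3, 5.47 against 9.24 for Sp8 and 1.73 against 1.03 for Meis2. The visceral endoderm-marker cells were the shallower, and no order is read from these shares.

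Shares at E7.5 pool the cells of all libraries and describe those cells, with no test between gates. Irx3 was detected in 21.3% of 80 Sox2-only cells, 14.3% of 77 Sox2 and T cells and 2.97% (0.617% to 8.44%) of 101 Mesp1 cells, with unthinned shares of 60%, 50.6% and 32.7%. Meis2 was detected in 3.75%, 13% and 21.8% (14.2% to 31.1%), unthinned 30%, 62.3% and 85.1%. At 5000 transcripts the Irx3 shares were 27.0%, 18.1% and 11.7%, closer to each other than at 2000, and those of Meis2 were 6.76%, 26.4% and 44.7%. At 2000 transcripts Sall3 lay at 17.5%, 19.5% and 20.8%, and Irx5 at 11.3%, 6.49% and 12.9%. Foxb1 lay at 11.3%, 16.9% and 4.95%, and Sp8 at 5%, 7.79% and 6.93%, whose unthinned shares were highest in the Sox2 and T cells at 57.1% and 64.9%. In 9 E7.5 cells with Foxa2 and Sox17 but no Sox2, which mark endoderm, unthinned detection was 5 cells for Irx3, 7 for Irx5, 2 for Sall3, 2 for Foxb1, 3 for Sp8 and 4 for Meis2, at a median of 39782 transcripts. At 2000 transcripts these came to 1 cell each for Sall3 and Foxb1 and 0 for the other 4 genes.

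**Figure D2:**
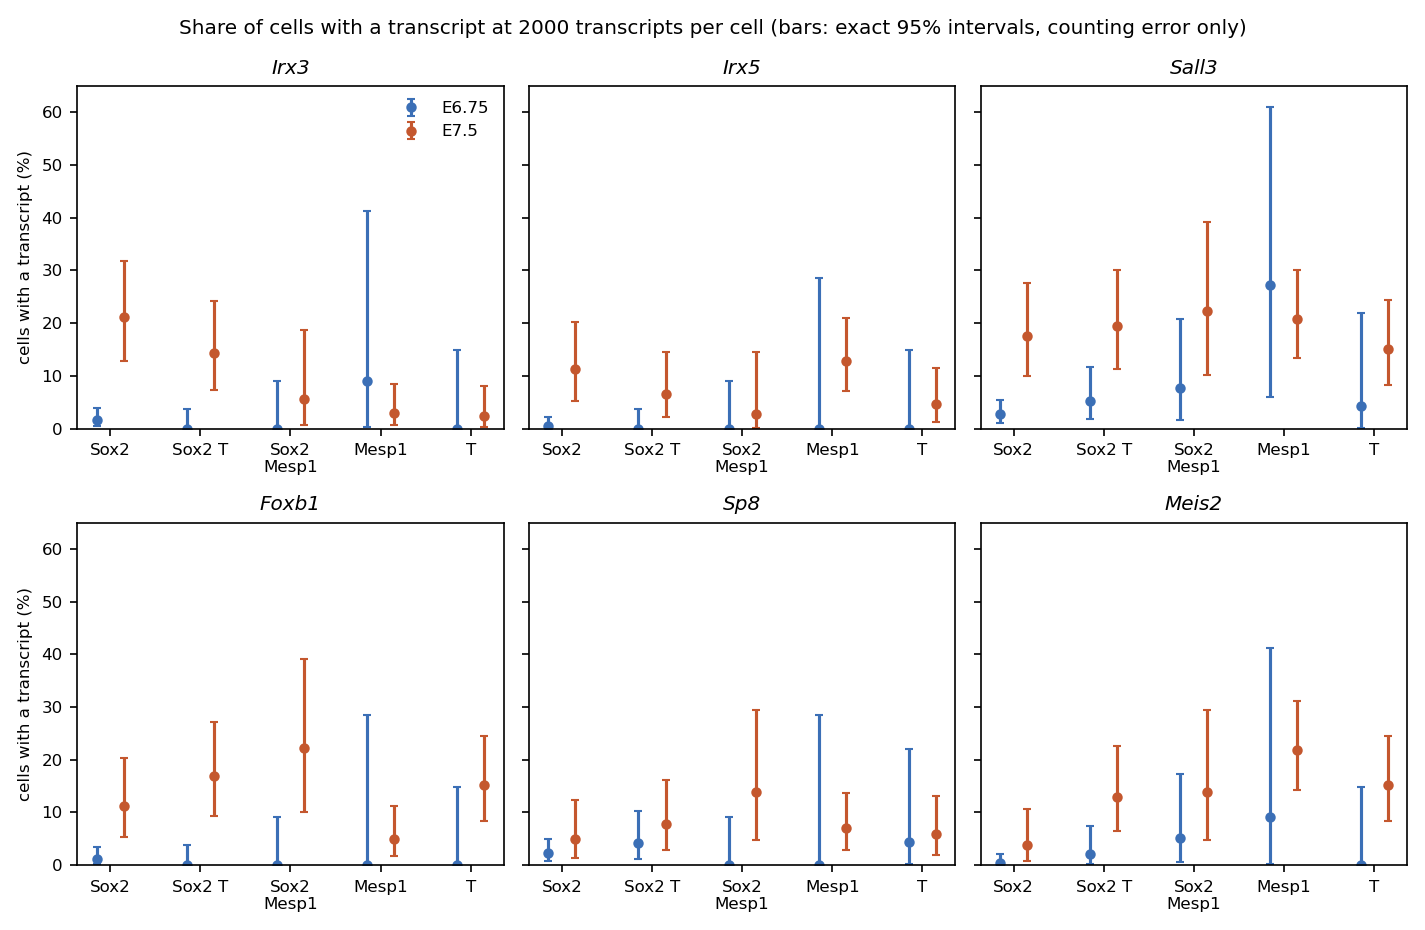
Share of cells with at least 1 transcript of each gene after thinning every cell to 2000 transcripts, in percent, by stage and gate, with exact 95% binomial intervals (counting error only). The thinning was a single random draw. At E7.5 Irx3 is at 21.3% in Sox2-only and 2.97% in Mesp1 cells, where the unthinned shares are 60% and 32.7%. Meis2 is at 3.75% and 21.8% in these, unthinned 30% and 85.1%.

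Levels per library at E7.5 put the 6 genes into different orders across 5 gates. Irx3 had its highest mean of these in Sox2-only cells (77.0 ± 38.5 CPM, SD, n = 7 libraries), then Sox2 and T cells (60.8 ± 41.1, n = 8), Mesp1 cells (33.2 ± 31.6, n = 10), T cells (19.9 ± 30.6, n = 8) and Sox2 and Mesp1 cells (13.1 ± 4.72, n = 6). Meis2 ran nearly the other way, with 18.8 ± 11.8 CPM in Sox2-only cells, 84.5 ± 61.9 in Sox2 and T cells, 89.9 ± 49.8 in T cells, 147 ± 71.1 in Sox2 and Mesp1 cells and 155 ± 105 in Mesp1 cells. Neighbours in both orders differ by less than the larger of their SDs, except the step of Meis2 from Sox2-only to Sox2 and T cells. Irx5 had overlapping means of 65.8 ± 41.4 in Sox2-only, 56.0 ± 46.4 in Sox2 and T, 42.2 ± 24.6 in Sox2 and Mesp1 and 73.4 ± 72.9 CPM in Mesp1 cells, and a lower one of 26.4 ± 27.7 in T cells. Sall3 was at 93.0 ± 66.7 CPM in Sox2-only cells, 114 ± 60.7 in Sox2 and T cells, 145 ± 27.6 in Sox2 and Mesp1 cells, 120 ± 18 in Mesp1 cells and 98.0 ± 42.6 in T cells, all within their spread.

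Foxb1 and Sp8 both had their lowest mean of these 5 gates in Mesp1 cells. Foxb1 was at 91.0 ± 88.6 CPM in Sox2-only cells, 97.8 ± 85.8 in Sox2 and T cells, 123 ± 97.9 in Sox2 and Mesp1 cells and 96.8 ± 92.3 in T cells, and lowest at 32.9 ± 31.7 in Mesp1 cells. Sp8 was at 42.8 ± 31.9, 54.5 ± 31.1, 50.9 ± 32.8 and 40.8 ± 35.7 CPM in these, and at 13.1 ± 15.6 in Mesp1 cells. In cells with the extraembryonic mesoderm gene Hand1 but none of Sox2, T or Mesp1 (n = 5 libraries), Sall3 and Meis2 had means of 50.5 and 52.7 CPM, and Irx3 was at 13, Irx5 at 27.6, Foxb1 at 4.37 and Sp8 at 4.66 CPM. In the cells with none of Sox2, T, Mesp1 and Hand1 and without both endoderm genes Foxa2 and Sox17 (4 libraries, 12 cells) Meis2 was at 173 ± 194 CPM, from 26.0 to 459, and Foxb1 at 148 ± 279 CPM, with 2 of the 4 libraries at 0. The data thus go partly against the neural ectoderm label: of the 3 gates with Sox2 and the Mesp1 and T gates, Meis2 had its highest means with Mesp1, and the levels of Irx5 and Sall3 overlapped between cells with and without Mesp1. Foxb1 and Sp8 were lowest in Mesp1 cells. In Sox2 and Mesp1 cells their means (123 and 50.9 CPM) lay above those of Sox2-only cells (91.0 and 42.8 CPM), within their spread.

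**Figure D3:**
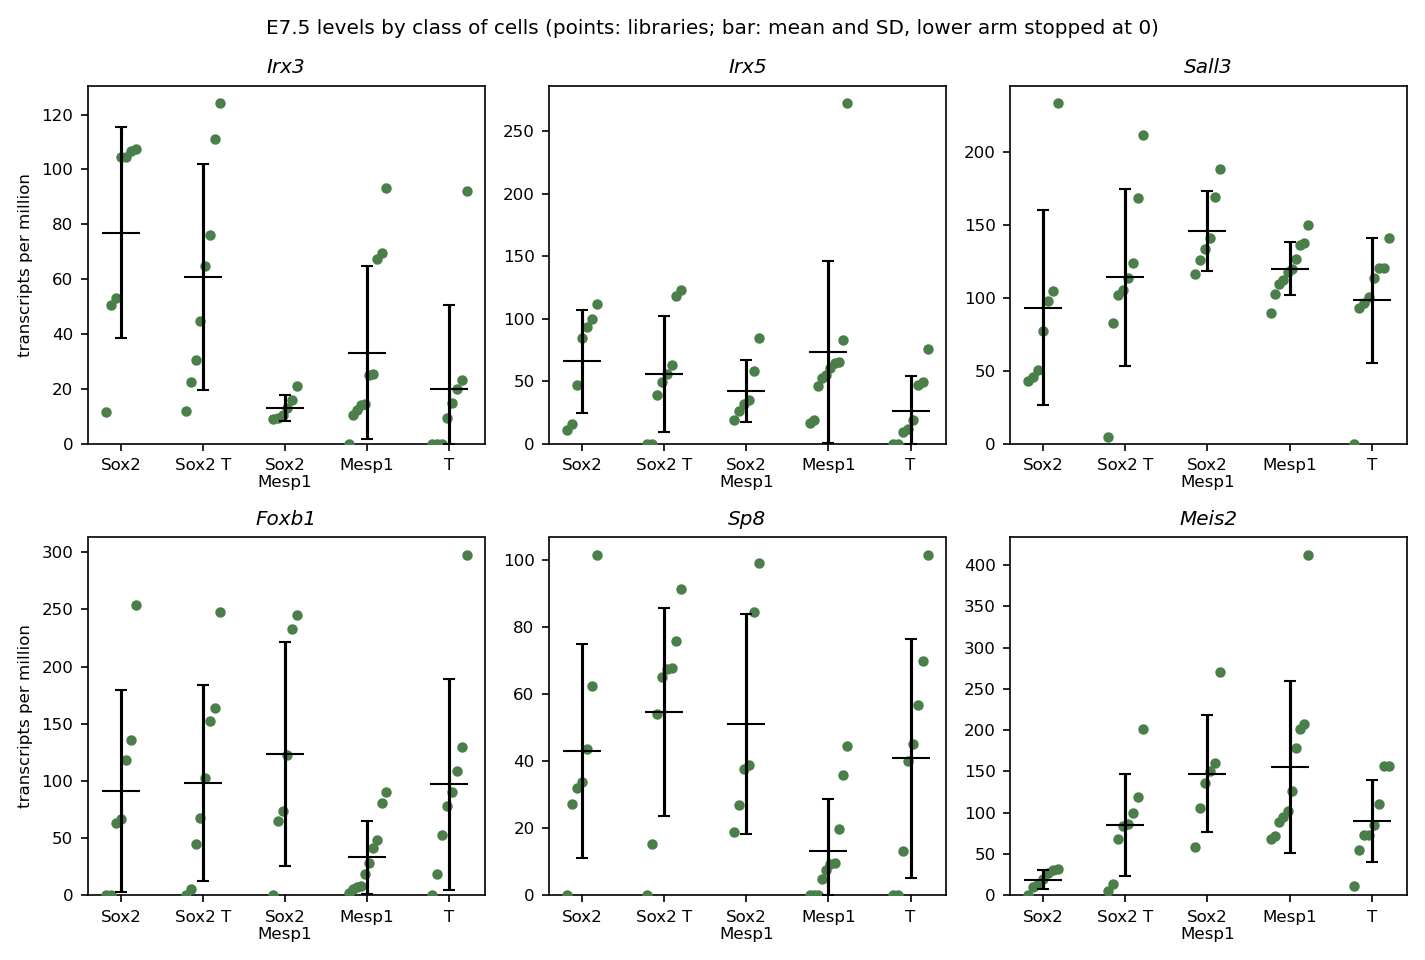
Level of each gene at E7.5 in 5 gates, in CPM, with 1 point for each library that had at least 3 cells of the gate and a bar at the mean with its SD (lower arm stopped at 0). Of these 5 gates, Irx3 has its highest mean in Sox2-only cells (77.0 CPM) and Meis2 in Mesp1 cells (155 CPM), and Sall3 overlaps between all 5.

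The comparison of Sox2-only with Mesp1 cells at E7.5 asks which of the genes separate the ectodermal from the mesodermal side. It used the 6 libraries with at least 3 cells of each, with 67 and 40 cells in all and 3 to 26 cells a sum. Meis2 ranged from 0 to 32.1 CPM (median 23.0) in Sox2-only cells and from 71.5 to 413 CPM (median 114) in Mesp1 cells. It was lower in Sox2-only cells in 6 of 6 libraries with no overlap, with a log2 fold change of -3.10 (SE 0.453, limma adjusted p = 5.49e-05). Meis2 passed the filter on low counts only through its Mesp1 sums, the group where it was high. A call in the other direction was not open to it, so this p-value is given as a description. Foxb1 was at 118, 62.6, 254 and 136 CPM in the Sox2-only cells of replicates 3, 4, 6 and 8 and at 4.86, 48.5, 80.2 and 7.16 CPM in their Mesp1 cells. Replicates 7 and 11 went the other way, with 0 in Sox2-only cells, which allows up to 11.4 and 31.9 CPM, and 28.3 and 18.4 CPM in Mesp1 cells. The log2 fold change of Foxb1 was 1.57 (SE 0.502) and missed the threshold with a limma adjusted p of 0.0592. It passed without replicate 7 (limma adjusted p = 0.00779), without replicate 11 (0.0384) and without the filter on low counts (0.00209). Replicates 7 and 11 are those that went the other way. Foxb1 was tested in only 4 of the 6 fits with 1 library left out, and its limma adjusted p there reached 0.177.

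Irx3 ranged from 11.4 to 108 CPM (median 78.9) in Sox2-only cells and from 12.1 to 93.1 CPM (median 19.9) in Mesp1 cells of the same libraries. It was higher in Sox2-only cells in 4 of 6 libraries, the groups overlapped, and the log2 fold change of 0.82 (SE 0.385) did not pass with a limma adjusted p of 0.243. Irx5 ranged from 10.6 to 111 CPM against 18.8 to 272 CPM, with a log2 fold change of -0.43 (SE 0.309, limma adjusted p = 0.50). Sall3 ranged from 42.5 to 233 against 89.5 to 149 CPM, with -0.23 (SE 0.219, limma adjusted p = 0.626). Sp8 fell below the filter, and ranged from 0 to 101 CPM (median 32.8) against 0 to 35.8 CPM (median 7.02), higher in Sox2-only cells in 5 of 6 libraries. Fitted without the filter, Sp8 had a log2 fold change of 1.79 (SE 0.468, limma adjusted p = 0.00573). Of the 5 members tested 1 passed, Meis2, where 8.31% of the 4118 genes tested did so, 4.44% higher and 3.86% lower. Meis2 was tested only through its Mesp1 sums, so nothing is read from this count.

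Other neural ectoderm genes were split as well in this comparison. Of 30 on the list 10 were tested, of which 5 were higher in Sox2-only cells and 2 lower, and the list's median was 0.79 against -0.01 over all genes tested. The POU and SOX factors Pou3f1 and Sox3 were higher by 3.44 and 3.57 on the log2 scale and Otx2, a gene of anterior epiblast and forebrain, by 1.98. Cdh2, the cadherin of both neural tissue and mesoderm, was among those lower and fell by 2.88. Among 7 tested paralogs and partners, Sall2 was higher by 1.92 and Sp5 fell by 2.43. All 5 tested epiblast genes were higher in Sox2-only cells (median 2.83), among them the DNA methyltransferase gene Dnmt3b by 2.78, Utf1 by 4.80 and Slc7a3 by 4.26. The 3 tested mesoderm markers were lower. Pdgfra fell by 4.19, Snai1 fell by 1.91 and Cdh11 fell by 1.88, while Hand1 fell by 2.22 and Bmp4 fell by 2.87. Pdgfra, Snai1 and Cdh11 had means of 9.64, 23.4 and 17.1 CPM in Sox2-only cells, too low to pass the filter without their Mesp1 sums. Sox3, Pou3f1, Utf1 and Slc7a3, at 7.99, 13.2, 7.84 and 13.7 CPM in Mesp1 cells, likewise needed their Sox2-only sums. A call in the other direction was not open to such genes, so nothing is read from these list counts and medians. Visceral endoderm markers summed to at most 8.02 CPM in Sox2-only and 9.42 CPM in Mesp1 cells.

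T among Sox2 cells was compared in 5 libraries, with 49 Sox2 and T cells against 66 Sox2-only cells. Meis2 was at 13.4 to 202 CPM (median 98.9) with T and at 9.62 to 32.1 CPM (median 26.7) without, higher in 5 of 5 libraries though the ranges overlapped. It fell below the filter, and the fit without a filter gave a log2 fold change of 2.00 (SE 0.341, limma adjusted p = 0.0297). Markers of other cell types moved with T. Those of nascent and paraxial mesoderm summed to 103 to 229 CPM (median 179) with T against 40.1 to 140 CPM (median 43.4) without, and those of endoderm and node had medians of 133 against 30.4 CPM. Visceral endoderm markers had medians of 7.24 and 5.06 CPM and reached 425 CPM in 1 library with T, against at most 20 CPM without. Their part in the Meis2 difference was not tested. The other 5 genes were tested and did not pass. The log2 fold changes were 0.09 for Irx3 (SE 0.328, limma adjusted p = 0.985), 0.33 for Irx5 (SE 0.412, 0.923), 0.18 for Sall3 (SE 0.249, 0.933), 0.24 for Foxb1 (SE 0.453, 0.961) and 0.41 for Sp8 (SE 0.475, 0.912). Of all 4984 genes tested 0.301% passed, 0.201% higher and 0.1% lower with T. Among them were Otx2, which with T fell by 0.81, and Dnmt3b, which fell by 0.74, the 1 gene called of 12 tested neural ectoderm genes and the 1 of 6 tested epiblast genes.

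Position along the body axis was approached through Otx2, an anterior gene, and Hoxb1, a posterior one, in E7.5 cells with Sox2 and without Mesp1. T was left free in this gate, and the share of cells with T in the 2 groups is not given here. Hoxb1 itself had a mean of 10.6 CPM in Sox2-only cells and 137 CPM in Sox2 and T cells. The part of T in the differences below was not tested. Cells with Otx2 and no Hoxb1 (52) were compared with cells with Hoxb1 and no Otx2 (14) in replicates 2, 3 and 4. Meis2 was at 40.4, 22.0 and 21.9 CPM in the Otx2 cells and at 152, 309 and 156 CPM in the Hoxb1 cells. The 2 groups did not overlap, and the log2 fold change was -3.29 (SE 0.355, limma adjusted p = 0.00283). Meis2 passed the filter on low counts only through its Hoxb1 sums, the group where it was high, so this p-value is given as a description. Without replicate 4 the log2 fold change of Meis2 was -3.77 with a limma adjusted p of 0.155, and no gene passed. Irx3 went the other way, with 33.6, 117 and 108 CPM in Otx2 cells and 0, 9.97 and 7.42 CPM in Hoxb1 cells. It fell below the filter, and without a filter had a log2 fold change of 3.45 (SE 0.713, limma adjusted p = 0.00033). The Hoxb1 values of Irx3 rest on 0, 1 and 1 transcripts. All lie below the 13.4, 29.9 and 22.2 CPM that 3 transcripts would give, so this p-value is given as a description.

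Irx5 was at 135, 96.3 and 98.7 CPM in the Otx2 cells of replicates 2, 3 and 4 and at 4.47, 39.9 and 7.42 CPM in their Hoxb1 cells, also without overlap. Its log2 fold change of 2.80 (SE 0.902) did not pass with the filter (limma adjusted p = 0.260) and did so without it (0.00157). Irx5 entered the filtered fit only through its Otx2 sums, and its Hoxb1 values rest on 1, 4 and 1 transcripts. Foxb1 was lower in Otx2 cells in 3 of 3 libraries, with a log2 fold change of -1.16 (SE 0.250, limma adjusted p = 0.0747). It passed without the library block (0.0183), without replicate 2 (0.00603) and without replicate 3 (0.0360). Without replicate 4 Foxb1 did not pass, with a limma adjusted p of 0.485. Sall3 (-0.66, SE 0.247, limma adjusted p = 0.373) and Sp8 (-0.78, SE 0.358, 0.508) did not pass. Of 5 members tested 1 passed, where 1.22% of 3604 genes did so, 0.222% higher and 0.999% lower in Otx2 cells. That member, Meis2, was tested only through the group where it was high, so nothing is read from this count. On the lists, Sfrp1 was higher in Otx2 cells by 4.33 and Dnmt3b by 1.51, and the caudal genes Nkx1-2 fell by 4.55 and Gbx2 fell by 2.76, and Tbx6, a gene of paraxial mesoderm, fell by 5.43. Sfrp1 (mean 4.81 CPM in Hoxb1 cells) and Tbx6 (2.81 CPM in Otx2 cells) passed the filter only through the group where they were high. The nascent and paraxial mesoderm markers summed to 43.8 to 202 CPM in Otx2 cells and 380 to 708 CPM in Hoxb1 cells, and their part in these differences was not tested.

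Within the Sox2-only cells of E7.5, cells with an Irx3 transcript were set against cells without one in replicates 3, 4 and 7 (31 against 23 cells). In that order of libraries Irx5 was at 103, 104 and 29.8 CPM with Irx3 and at 53.9, 81.8 and 6.18 CPM without, higher in 3 of 3 libraries. The log2 fold change of Irx5, 0.74 (SE 0.390, limma adjusted p = 0.670), did not pass, nor did those of Sall3 (0.61, SE 0.365, 0.702) and Foxb1 (0.90, SE 0.373, 0.505). Foxb1 was at 151, 63.5 and 0 CPM with Irx3 against 62.9, 59.5 and 0 CPM without. Sp8 and Meis2 fell below the filter. Of 3522 genes tested, 0.0568% passed, and 273 had an unadjusted p under 0.05. The 2 genes that passed were lower with Irx3. Lars2, encoding the mitochondrial leucyl-tRNA synthetase, fell by 2.07 (mean 250 against 1079 CPM, limma adjusted p = 6.38e-08), and Gm42418, a gene that overlaps ribosomal RNA, fell by 1.05 (2797 against 6039 CPM, limma adjusted p = 5.27e-05). The median depth of the compared cells was 35441 transcripts with Irx3 against 31997 without in replicate 3, 31767 against 11199 in replicate 4 and 8994 against 29571 in replicate 7, and the part of depth was not tested.

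**Figure D4:**
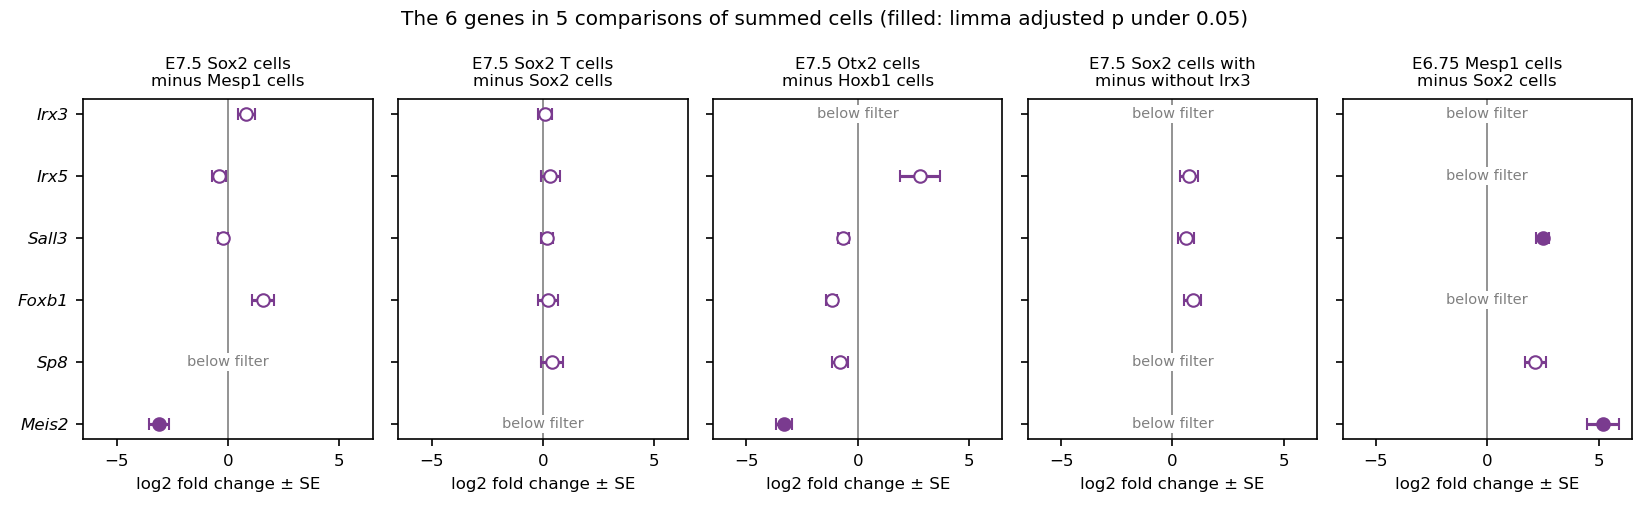
Log2 fold change of each gene with its standard error in the 5 comparisons of gates, from the limma-voom fits with library as a block (filled points have a limma adjusted p under 0.05). Genes that fell below the filter on low counts are marked as such. Meis2 lies at -3.10 in Sox2-only against Mesp1 cells, at -3.29 in Otx2 against Hoxb1 cells and at 5.21 in the E6.75 cells with Mesp1. In each of these it passed the filter only through the group where it was higher.

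Detection in the same cell is given as a description, since cells of 1 library share their source and deeper cells show more of every gene. Among 80 Sox2-only cells of E7.5, 41 had both Irx3 and Irx5, where independence within libraries gives 33.6. Foxb1 and Sp8 were found together in 21 cells against 15.5, and Irx3 and Meis2 in 21 against 15.6. Among 101 Mesp1 cells, Irx3 and Irx5 were together in 24 against 17.2, Irx3 and Meis2 in 32 against 28.5, Irx3 and Foxb1 in 8 against 11.6 and Irx3 and Sp8 in 7 against 11.3. The median number of the 6 genes found in 1 cell was 3 in Sox2-only cells, 4 in Sox2 and T cells and 3 in Mesp1 cells. At least 4 were found in 42.5%, 58.4% and 48.5% of these cells. At E6.75 the median Sox2-only cell had 0, and 143 of 259 had none.

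Likeness of pattern was measured as Pearson's r of log2(CPM + 5) over the 48 E7.5 sums of a library and a gate, among 8470 genes with a mean of at least 10 CPM. Sums of 1 library share embryos and depth, so r is a description. Among the 5 genes closest to Irx3 were Sfrp1 (0.646), Foxo3 (0.597), Pak1 (0.595) and Sun1 (0.595), and Irx5 came at rank 128 with 0.451. Among the 5 closest to Meis2 were Tbx6 (0.757), Hoxb1 (0.747), Car3 (0.711) and Ifitm1 (0.703). Irx3 and Meis2 had an r of -0.18. Foxb1 and Sp8 had an r of 0.716 with each other, and each was at rank 2 in the other's order.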

How the data were processed

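The deposited values were made by the authors. Per the submitters' processing notes bcl2fastq 2.17.1.14 and BWA 0.6.2-r126 were used; genome build, annotation and use of strand are not given in the sources used here. The deposited values equal expected counts of transcripts, observed molecular identifiers corrected for collisions among 4096 sequences, without depth normalisation, in 192 columns a library of which 96 are used. No 2 of the 972 kept cells had identical values. Well barcodes are common to all libraries. No doublet caller was run. Since the build is not given, no coordinates or sequences are printed.

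The 6 genes and all gene lists were chosen with earlier results of these data known. Named genes are the 6 genes in every comparison, up to 3 genes of smallest p per list and direction, in the comparison by Irx3 up to 5 genes of largest fold change in each direction, and the 5 genes most like Irx3 and Meis2; some genes that this rule selects are not reported here. Marker lists covered epiblast, 2 kinds of mesoderm, blood and endothelium, endoderm and node, visceral endoderm, extraembryonic ectoderm, and surface ectoderm and amnion.

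Expected counts of nuclear genes were summed without rounding per library and gate (at least 3 cells). The sums were fitted with limma-voom (limma 3.58.1, R 4.3.3) with library as a block. This came after a filter on low counts (10 at the median library, 15 in total) and TMM scaling, in own code tested on simulated data. Benjamini-Hochberg adjustment was over all genes tested, with a threshold of 0.05. The block pairs the 2 gates of a library because both hold cells of the same library. The planned edgeR fit was not used, because the unit of the columns could not be checked by the tool at hand. Gate genes were left out of counts. The alternatives were no filter, no block, other gates and depths, left-out cells and libraries, and limma-trend.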

Additional observations from a re-analysis of the deposited data

Results flagged for a closer look

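Of 48 sets of libraries examined for a single library far from the rest, 10 held one. The rule gives about 1 in 20 by chance only for normally distributed values, which levels from few transcripts need not be. No excess is read from this number. At E6.75, library 1_11 was far above the others among Sox2 and T cells for Foxb1 (16.4 CPM, next 3.64) and Sall3 (76.8, next 30.7), library 2_12 among Sox2-only cells for Foxb1 (4.32, next 1.47), and library 1_10 among Sox2-only cells for Sp8 (12.2, next 4.92). At E7.5, replicate 11 was far above the others among T cells for Foxb1 (298 CPM, next 129) and Irx3 (92.1, next 23.3). Among Mesp1 cells of E7.5, replicate 8 was high for Irx5 (272, next 82.7) and replicate 4 for Meis2 (413, next 208). Replicate 6 was high for Sall3 among Sox2-only cells of E7.5 (233, next 105), and replicate 9 was at 0 for Sall3 among T cells (next 93.2).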

How the results depend on the processing

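Of the fold changes of the 6 genes under the alternatives, 251 kept direction and side of the threshold, 9 came to pass, 5 no longer passed and 8 changed sign, and all 30 stage differences kept their direction. The changes of sign were all in values that did not pass. In Sox2-only against Mesp1 cells Irx5 turned to 0.27 without the replicate block and to 0.21 without replicate 8 (-0.65 to 0.21 over left-out libraries). With T against without it, Sall3 turned to -0.16 without the replicate block, limma-trend (chosen after seeing the data) gave -0.42 for Irx5, -0.33 for Sall3 and -0.27 for Foxb1, and without replicate 7, Irx3 was at -0.29 and Irx5 at -0.14 (-0.29 to 0.35 and -0.14 to 0.90 over left-out libraries). Counts of genes passing moved more. For Sox2-only against Mesp1 cells 342 became 599 without the filter and 1 after thinning to 2000 transcripts, which left 4 libraries and 114 genes, and 283 to 315 with 1 library left out. With T against without it 15 became 4 without the replicate block, 2 by limma-trend, 0 with gates on 2 transcripts, 9 without extraembryonic and Foxa2 cells, and 3 to 38 with 1 library left out (38 without replicate 3, 3 without replicate 4, 6 without replicate 7). For Otx2 against Hoxb1 cells 44 became 190 without the filter, 86 without the replicate block and 0 to 155 with 1 library left out (155 without replicate 2, 89 without replicate 3, 0 without replicate 4). For cells with against without Irx3, 2 became 13 without the filter, 0 without the replicate block, 10 with gates on 2 transcripts, 0 after thinning, 5 without extraembryonic and Foxa2 cells, 0 with at least 5 cells a gate, and 0 to 6 with 1 library left out. For the E6.75 cells with Mesp1, 103 became 275 without the filter, 35 without the replicate block, 28 by limma-trend, 211 with gates on 2 transcripts, 11 after thinning, 236 without extraembryonic and Foxa2 cells, and 10 to 87 with 1 library left out (10 without 2_13, 51 without 2_14). The shares of E7.5 Sox2-only cells moved with depth, at 5000 transcripts to 27.0% for Irx3, 29.7% for Irx5, 35.1% for Sall3, 23.0% for Foxb1, 17.6% for Sp8 and 6.76% for Meis2. The cause of these moves was not tested. The planned DESeq2 alternative was not run. Sums of 3 cells limit what can be detected for genes at these levels.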

Other observations

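At E7.5, 5 cells carried at least 3 markers of extraembryonic ectoderm. Irx3 had 18 transcripts in 3 of them and Sall3 2 transcripts in 2, and Irx5, Foxb1, Sp8 and Meis2 were at 0. In the 11 E6.75 cells with Mesp1 and no Sox2, which came from 2 libraries with at least 3 such cells, the mean was 40.5 CPM for Irx3, 31.0 for Irx5, 88.3 for Sall3 and 46.5 for Meis2.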
